A study of Mus musculus with 12 samples.

Results

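The 9 genes described here encode surface proteins by which prostate progenitor and epithelial cells are recognised and sorted: Ly6a, Psca, Cd24a, Prom1, Epcam, Cd44, Cd38, Dpp4 and Ngfr. They are named by a list that uses no threshold on their values, though earlier results of these data were known when it was drawn up, and are 9 of the 43243 gene names in the deposited files. RNA was sequenced from mouse prostate organoids, cultures grown in Matrigel with EGF from digested prostate tissue, in 6 SPOPmut and 6 SPOPwt libraries, whose numbers S0 to S5 give 6 pairs. SPOP selects the substrates of a cullin ubiquitin ligase, and the comparison addresses whether expression differs with the mutant.

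In the SPOPmut libraries a mutant SPOP was switched on by Cre recombinase, and SPOPwt libraries are the controls. Per the labels' protocols, 5 pairs came from model A, in which prostate cells were infected with a CreERT2 virus and selected with puromycin, and 1 pair from model B, in which CreERT2 is a transgene tied to Tmprss2, a gene of prostate luminal cells. Both received 4-hydroxytamoxifen to activate the recombinase. The protocols spell the mutant allele R26F133V, where they describe lines with Cre under the Probasin promoter. No library's own label names its model, and the labels give neither the strain nor the age of the mice. Mutant cells were sorted by GFP and controls passed the sorter without that selection, so genotype and sort cannot be told apart. Whether each pair is a culture or animal of its own is not stated, so p-values here cover only the spread between these samples, which may be technical.

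Surface markers of the prostate divide along its epithelial layers. Ly6a (Sca-1) and Psca are small glycolipid-anchored proteins of the Ly6 family, and Sca-1 is used to enrich regenerating cells from the mouse prostate. Cd24a and Epcam are general epithelial surface proteins, Prom1 (CD133) sits on membrane protrusions, and Cd44 is the receptor for the matrix sugar hyaluronan. Dpp4 (CD26) is the protease used to sort luminal cells from the mouse prostate. In the human prostate NGFR, a neurotrophin receptor, marks basal cells, and a low level of CD38, an enzyme that consumes NAD, marks a luminal progenitor.

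The values are RPKM, reads relative to transcript length and library depth, so levels can be set side by side between genes. Depth estimated from the spacing of low values differed by up to 1.45 times between libraries, and one read was worth about 0.0284 to 0.0411 RPKM for the short gene Psca and 0.0039 to 0.0056 RPKM for the long gene Dpp4. Spop itself averaged 51.4 ± 3.66 RPKM in SPOPmut libraries and 46.0 ± 4.18 RPKM in SPOPwt libraries (SD, n = 6), a value per gene that does not tell mutant from normal transcripts.

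The pair S5 stood apart from S0 to S4 in both genotypes, and the markers of whole cell types moved with it. All 10 basal epithelial markers were above every S0 to S4 library in S5, 8 of them below 1 RPKM in all of S0 to S4, with a summed level of 2410 to 3420 RPKM in the 2 S5 libraries and 1.07 to 8.38 RPKM in the 10 S0 to S4 libraries. Of 10 luminal markers 6 did the same (2070 to 2310 RPKM in S5, 34.4 to 151 RPKM in S0 to S4), while Hoxb13 was below them and Pbsn, the prostate secretory protein probasin, was at 0 in all 12 libraries. Of 10 fibroblast markers 8 were below every S0 to S4 library in S5, with a sum of 1.02 to 1.37 RPKM in S5 and 1210 to 2220 RPKM in S0 to S4. Proliferation markers summed to 4.55 to 10.4 RPKM in S5 and 23.0 to 201 RPKM in S0 to S4. Immune markers summed to 7.41 to 7.75 RPKM in S5 and 3.88 to 6.60 RPKM in S0 to S4. Nearly all of this was Cd68, which overlapped, and Csf1r, while the leukocyte marker Ptprc reached at most 0.00193 RPKM in any library. Nerve markers summed to 3.01 to 4.17 RPKM in S5 and 4.84 to 15.1 RPKM in S0 to S4. Of the mesothelial markers Msln alone was expressed above 1 RPKM, at 308 and 520 RPKM in the S5 mutant and control and 31.8 to 194 RPKM in S0 to S4. Upk1b, Upk3b and Lrrn4 also stood above in S5, at no more than 0.818 RPKM. Wt1 was at 0 in S5 and at most 0.00486 RPKM in S0 to S4. Smooth muscle markers summed to 2.45 to 3.85 RPKM in S5 and 113 to 809 RPKM in S0 to S4. Endothelial markers stayed at or below 2.02 RPKM in all libraries, and seminal vesicle markers at or below 0.132 RPKM. S5 is 1 pair, so its difference from S0 to S4 has no replicate and was not tested, and in bulk RNA fewer cells of a type and less RNA per cell cannot be told apart.

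**Figure D1:**
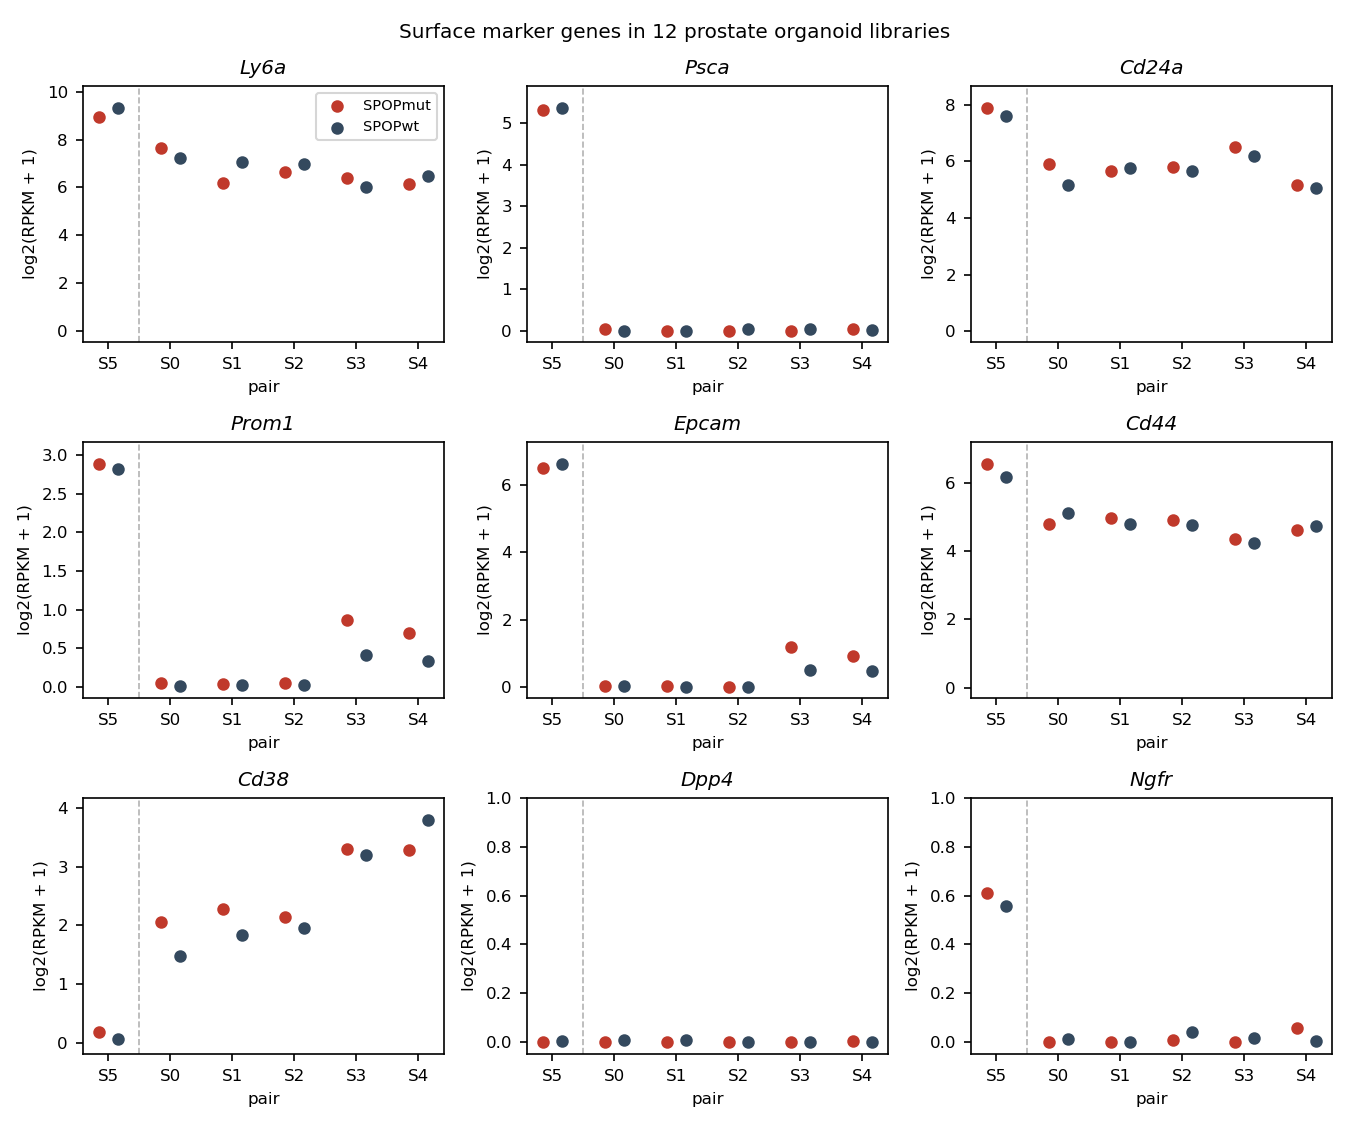
Level of each of the 9 genes on the log2(RPKM + 1) scale (vertical axes, which differ between panels) in the 6 pairs (horizontal axes), with SPOPmut in red left of SPOPwt in dark blue and 1 point per library. Psca, Epcam and Ngfr stand high or detectable in S5 alone or nearly so, Cd38 is lowest in S5, and Dpp4 is at or near 0 in all 12 libraries.

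Of the 9 genes, 7 stood above every S0 to S4 library in both S5 libraries, 1 stood below (Cd38) and 1 overlapped (Dpp4). Among the 15508 genes that reached 1 RPKM in 2 or more libraries (the lower filter), 24.9% stood above in the same way and 27.0% below, so separation of S5 was common to the transcriptome. Of the 9, 7 passed that filter, 6 of the 7 that stood above and Cd38. Psca and Prom1 passed it through the 2 S5 libraries alone, so that they stood above was fixed by the filter. Of the 14754 genes with at least 1 RPKM in some S0 to S4 library, 21.1% stood above and 28.4% below, and the members among them were Ly6a, Cd24a, Epcam and Cd44 above and Cd38 below. Ngfr and Dpp4 did not pass the filter. The name of the set therefore holds only in part: the general epithelial markers were highest in the pair with the highest basal and luminal markers, Cd38 went the other way, and the luminal sorting marker Dpp4 was not detectable.

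Epcam, an adhesion protein of most epithelia, gave the widest difference on the log2(RPKM + 1) scale. It stood at 88.6 RPKM (about 6580 reads) in the S5 mutant and 96.3 RPKM (about 8660 reads) in the S5 control. In S0 to S4 the lowest value was 0, the median 0.022 and the highest 1.28 RPKM. The log2(RPKM + 1) difference of S5 minus S0 to S4 was 6.23, with an SD of 0.44 among the 10 S0 to S4 libraries. Prom1, the pentaspan protein prominin 1, stood at 6.35 RPKM in the S5 mutant and 6.07 RPKM in the S5 control, against 0.0083 to 0.83 RPKM in S0 to S4 (median 0.039). Both genes were thus separated in S5, and both were detectable in some of the other pairs.

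The promoters of these 2 genes and of Cd38, which ran opposite to them, are shown to set the sequences side by side. Each is 300 bases in GRCm38.p6 from RefSeq, 250 before the start of transcription and 50 after it, written 5′ to 3′ on the gene's own strand, and capitals mark CAGGTG or its reverse complement CACCTG, the E-box form bound by the ZEB and Snail repressors. Epcam is at chr17:87635729-87636028 (plus strand), Prom1 at chr5:44101687-44101986 (minus strand) and Cd38 at chr5:43868559-43868858 (plus strand).
Epcam: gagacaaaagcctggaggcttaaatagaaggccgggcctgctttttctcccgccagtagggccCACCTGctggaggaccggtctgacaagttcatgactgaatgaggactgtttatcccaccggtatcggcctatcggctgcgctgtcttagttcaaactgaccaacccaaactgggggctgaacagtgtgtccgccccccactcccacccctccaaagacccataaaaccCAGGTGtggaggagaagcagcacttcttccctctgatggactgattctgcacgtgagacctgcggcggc
Prom1: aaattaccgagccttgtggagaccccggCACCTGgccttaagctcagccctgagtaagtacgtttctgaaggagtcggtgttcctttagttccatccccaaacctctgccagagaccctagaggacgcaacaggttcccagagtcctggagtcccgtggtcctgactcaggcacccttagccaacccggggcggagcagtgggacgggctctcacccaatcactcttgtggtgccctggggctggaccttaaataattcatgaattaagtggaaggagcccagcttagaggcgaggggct
Cd38: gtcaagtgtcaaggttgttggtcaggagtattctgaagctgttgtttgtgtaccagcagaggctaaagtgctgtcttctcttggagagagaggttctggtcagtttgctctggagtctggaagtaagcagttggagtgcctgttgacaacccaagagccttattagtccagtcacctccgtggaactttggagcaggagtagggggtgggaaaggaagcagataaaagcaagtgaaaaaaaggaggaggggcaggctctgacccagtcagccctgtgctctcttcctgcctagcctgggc
Epcam held 2 such E-boxes, starting at -187 and -19 from the transcription start, Prom1 held 1 at -222, and Cd38 held none. Of 32851 promoters of this length, 20.2% held at least 1 on either strand and 2.88% held 2 or more. The GC box GGGCGG or its reverse complement, searched for on both strands, occurred in the Epcam and Prom1 windows and not in that of Cd38, with 35.7% of all promoters holding it. TATAAA, on either strand, was in none of the 3 and in 13.6% of all promoters, and no match of these motifs overlapped another. Prom1 has a further annotated start at chr5:44094719-44095018, with none of the 3 motifs. Promoters of Cd44, Dpp4 and Ngfr were in the table too and held no E-box of this form, and that of Dpp4 held a TATAAA match at -227. Ly6a, Psca and Cd24a are named without a promoter.

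Psca was above single reads only in S5. It stood at 38.7 RPKM in the S5 mutant and 39.9 RPKM in the S5 control, about 1130 and 1410 reads. In S0 to S4 it was listed at 0 in 5 of 10 libraries and at no more than 0.035 RPKM, about 1 read, in the others. Because those values are at the level of single reads, no fold is given. Ngfr was low everywhere, at 0.53 RPKM in the S5 mutant and 0.47 RPKM in the S5 control (about 61.6 and 66.8 reads), but above the 0 to 0.040 RPKM of S0 to S4. The nerve and Schwann markers given above summed lower in S5 than in S0 to S4. Dpp4 was listed at 0 in 8 of 12 libraries and reached at most 0.0042 RPKM, about 1 read, so it was not detectable at this depth in any pair.

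Ly6a had the highest mean level of the members in both genotypes, with Cd24a above it only in the 2 libraries of S3. It stood at 487 RPKM in the S5 mutant and 632 RPKM in the S5 control, and in S0 to S4 at 62.9 RPKM (lowest), 92.4 RPKM (median) and 200.4 RPKM (highest). The mean level was 5.17 times as high in S5, and the log2(RPKM + 1) difference 2.44 with an SD of 0.54 among S0 to S4. By mean RPKM Ly6a ranked 47 of all gene names in S5 and 462 in S0 to S4. Unlike Epcam and Psca it was therefore abundant in the fibroblast-marker-rich pairs as well. Ly6a shares sequence with its neighbours: 18.5% of its 51-base transcript windows, the length of 1 read, also occur in transcripts of other genes, first of all Ly6c1 and Ly6i. How the authors' counting treated such reads is not given in the sources used here, which leaves its value uncertain.

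Cd24a, a heavily glycosylated glycolipid-anchored protein, followed the same course at 233 RPKM in the S5 mutant and 195 RPKM in the S5 control. In S0 to S4 it ran from 32.4 RPKM through a median of 51.2 to 90.6 RPKM. Its mean was 4.04 times as high in S5, a log2(RPKM + 1) difference of 2.06 (SD 0.46 among S0 to S4). A share of 2.67% of its 51-base windows also occurs in the gene model Gm6212. Cd44 stood at 93.1 RPKM in the S5 mutant and 71.9 RPKM in the S5 control, against 18.1 RPKM (lowest), 26.5 RPKM (median) and 33.7 RPKM (highest) in S0 to S4, 3.16 times as high by the means. Its values are for the whole gene, so its splice forms cannot be told apart.

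Cd38 was the only member below the other pairs in S5. It stood at 0.14 RPKM in the S5 mutant (about 18.9 reads) and 0.048 RPKM in the S5 control (about 7.7 reads), while S0 to S4 ran from 1.77 RPKM through a median of 3.65 to 12.8 RPKM. The mean of S0 to S4 was 58.7 times that of S5. Bst1, its closest relative and its neighbour at a distance of 24.6 kb on chromosome 5, ran the other way, at 4.58 RPKM in the S5 mutant and 2.02 RPKM in the S5 control, against a maximum of 0.37 RPKM in S0 to S4. Prom1 lies on the same chromosome, 81.2 kb from Cd38, and also ran opposite to it. These 3 neighbouring genes thus did not share 1 direction.

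Within S0 to S4 the members split the pairs again. Epcam stood at 1.28 and 0.88 RPKM in the S3 and S4 mutants and at 0.41 and 0.39 RPKM in the S3 and S4 controls, which is about 32.8 to 79.5 reads, while the 6 libraries of S0 to S2 reached at most 0.030 RPKM. Prom1 stood at 0.83 and 0.62 RPKM in the S3 and S4 mutants and at 0.33 and 0.27 RPKM in the controls (about 74.4 to 169 reads), against at most 0.041 RPKM in S0 to S2. Cd38 stood at 8.87 and 8.68 RPKM in the S3 and S4 mutants and at 8.16 and 12.8 RPKM in the controls, and in S0 to S2 at 1.77 to 3.88 RPKM. All 4 libraries of S3 and S4 were above all 6 of S0 to S2 for these 3 genes, and below them for Cd44 (18.05 to 26.02 RPKM in S3 and S4, 26.3 to 33.7 RPKM in S0 to S2). Over the 15508 genes of the lower filter, 17.6% were above in this way and 7.10% below. Ly6a, Psca, Cd24a, Dpp4 and Ngfr overlapped between the 2 sets of pairs. The split was seen in these values, so it is a description and carries no test. Fibroblast markers summed to 1530 to 2220 RPKM in S3 and S4 and 1210 to 1490 RPKM in S0 to S2, without overlap, and proliferation markers to 23.0 to 140 RPKM in S3 and S4 and 111 to 201 RPKM in S0 to S2. The summed basal markers overlapped, at 2.76 to 6.05 RPKM in S3 and S4 and 1.07 to 8.38 RPKM in S0 to S2, with Krt15 the largest term. Of the 10 basal markers 3 stood above in S3 and S4, all at low levels: Krt5 (0.164 to 0.241 RPKM in S3 and S4, at most 0.0428 RPKM in S0 to S2), Krt14 (0.0777 to 0.201 RPKM in S3 and S4, at most 0.0535 RPKM in S0 to S2) and Lamb3 (0.0302 to 0.0945 RPKM in S3 and S4, at most 0.0254 RPKM in S0 to S2). The summed luminal markers overlapped too, at 34.4 to 82.7 RPKM in S3 and S4 and 43.7 to 151 RPKM in S0 to S2, while 4 of 10 stood above (Cldn3, Cldn4, Tmprss2 and Hoxb13) and 1 below (Krt19). The part of these cell types in the result was not tested. Nor was that of a sequencing batch, since it is not stated whether S3 and S4 were sequenced apart from S1 and S2.

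**Figure D2:**
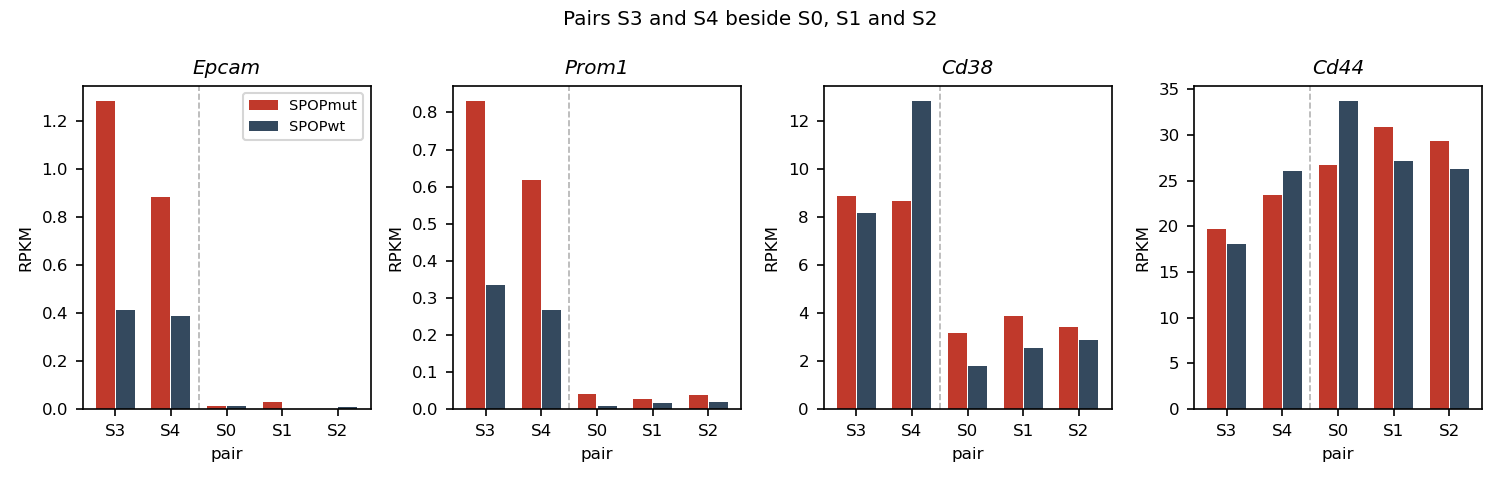
RPKM (vertical axes) of Epcam, Prom1, Cd38 and Cd44 in the pairs S3 and S4, left of the dashed line, and S0, S1 and S2, right of it (horizontal axes), with SPOPmut in red left of SPOPwt in dark blue and 1 bar per library. Epcam and Prom1 are near 0 in S0 to S2 and taller in the mutant than in the control in S3 and S4, where Cd38 is also higher and Cd44 lower than in S0 to S2.

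The low Epcam and Prom1 levels of S3 and S4 were not a fixed fraction of S5. Relative to the S5 mean, S3 and S4 held on average 8.26% of the Prom1 level, 0.801% of Epcam and 0.0488% of Psca. For the basal keratins Krt5 and Krt14 the shares were 0.0137% and 0.0152%, and for the claudins Cldn7 and Cldn4 9.59% and 0.224%. The basal genes Krt15 and Trp63 were at 1.44% and 10.7%, but both overlapped S0 to S2, where they were at 2.7% and 2.69%. Psca overlapped too, at the level of single reads. Among the genes given a share above that stood above in S3 and S4, it ranged from 0.0137% (Krt5) to 9.59% (Cldn7). Cldn3 and Hoxb13 also stood above there, but at levels higher than in S5. Cldn3 was at 0.195 to 0.864 RPKM in S3 and S4, and at 0.165 and 0.150 RPKM in the S5 mutant and control. Hoxb13 was at 16.5 to 29.9 RPKM in S3 and S4, and at 5.04 and 4.43 RPKM in the S5 mutant and control. The source of the low Epcam and Prom1 levels was not tested. The adhesion protein E-cadherin (Cdh1) was at 0.17 to 1.34 RPKM in S3 and S4 and 0.19 to 0.99 RPKM in S0 to S2, so it overlapped.

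**Figure D3:**
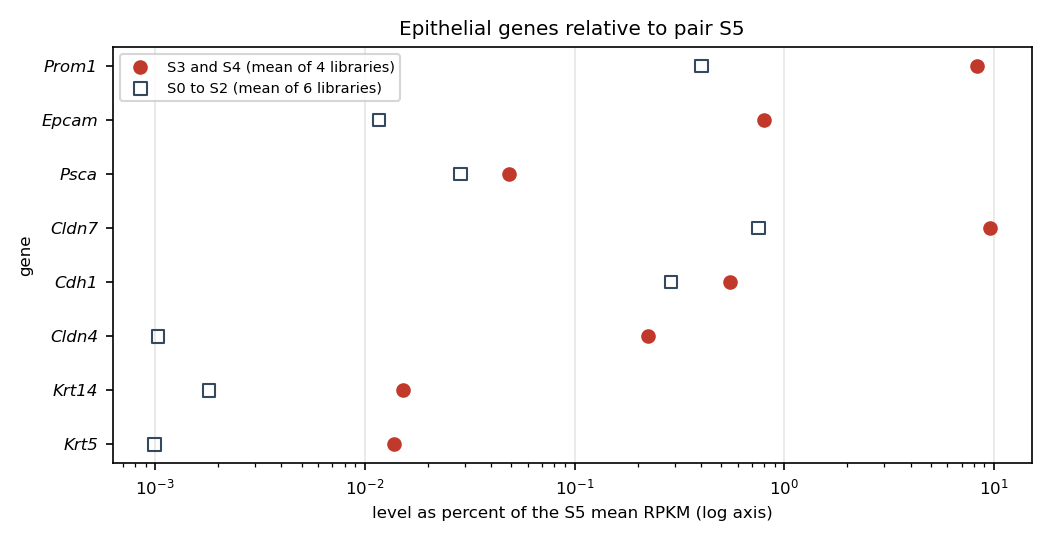
Mean level in S3 and S4 (red circles) and in S0 to S2 (open squares) as a percent of the mean RPKM of the 2 S5 libraries (horizontal log axis) for 8 epithelial genes (vertical axis). In S3 and S4 Prom1 reaches 8.26% of S5, Epcam 0.801% and Krt5 0.0137%.

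The order of the pairs differed between members. For Ly6a it was S5, S0, S2, S1, S4 and S3, with pair means of 560, 175, 111, 103, 78.8 and 73.5 RPKM. S5 and S0 were separate from the next pair, and the others overlapped their neighbours. For Cd24a it was S5 (214 RPKM), S3 (81.3), S2 (52.0), S1 (51.2), S0 (46.6) and S4 (33.7), and again only the first 2 were separate from the next. For Cd44 S5 (82.5 RPKM) was followed by S0, S1 and S2 (30.2, 29.0 and 27.8), which overlapped, then by S4 (24.7) and S3 (18.9), each separate from the pair before it. For Cd38 S4 (10.75 RPKM) and S3 (8.52) overlapped and were separate from S1, S2 and S0 (3.22, 3.14 and 2.48), which were separate from S5 (0.096). S0 was thus next to S5 for Ly6a and next to last for Cd24a.

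Between SPOPmut and SPOPwt no member passed the test. limma, fitted across all genes with pair as a block, called 0 of 13600 genes at an adjusted p under 0.05 (0.00%), with 761 at an unadjusted p under 0.05. Of the 9 members, 4 passed its filter of at least 1 RPKM in at least 6 libraries (Ly6a, Cd24a, Cd44 and Cd38). Psca, Prom1 and Epcam passed only a lower filter of 2 libraries and were fitted with it, and Dpp4 and Ngfr passed neither. The groups of 6 libraries overlapped for all 9.

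Cd24a had the smallest unadjusted limma p of the fitted members (0.0518). In the mutants it stood at 233 RPKM in S5 and at 58.2, 49.1, 55.0, 90.6 and 35.0 RPKM in S0 to S4, and in the controls at 195 RPKM in S5 and at 35.0, 53.3, 48.9, 72.0 and 32.4 RPKM in S0 to S4. The mutant was above the control in 5 of 6 pairs, all but S1, with a mean log2(RPKM + 1) difference of 0.24 (SE 0.11, 95% confidence interval -0.0024 to 0.49, limma adjusted p = 0.887). The widest pair difference was 0.72 in S0, and without S0 the mean was 0.15.

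Prom1 was the only member higher in the mutant in 6 of 6 pairs, where 3.62% of the 13600 genes tested, which do not include it, were higher in all 6 and 1.68% lower in all 6. The mean difference was 0.16 (SE 0.079, 95% confidence interval -0.023 to 0.34, limma adjusted p = 0.854 with the lower filter). Flipping the signs of its 6 pair differences (exact permutation, two-sided) gave p = 0.03125, the lowest value possible with 6 pairs. The same exact test gave p = 0.09375 for Cd24a and higher values for the other 7 members, and no adjustment over the 9 is given, since the members were chosen with results known. The pair differences were 0.46 in S3, 0.35 in S4, 0.057 in S5 and at most 0.046 in S0 to S2, where the gene rested on about 2.25 to 9.81 reads. A share of 5.01% of its 51-base windows occurs in other gene models, first of all the antisense gene Gm16401, which stood at no more than 0.147 RPKM. The library kit does not mark strand.

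In S3 and S4, but not in S5, Epcam was higher in the mutant by ratios like those of Prom1. Its mutant to control ratio was 3.11 in S3, 2.28 in S4 and 0.919 in S5, and that of Prom1 2.49, 2.31 and 1.05. Among 15300 genes of the lower filter with values above 0 in the 4 libraries of S3 and S4, 0.471% (72 genes) were at least 2-fold higher in the mutant in both pairs. This measure was chosen after the values were seen, and it rests on 2 pairs. Over all 6 pairs the Epcam difference was 0.17 (SE 0.12, 95% confidence interval -0.093 to 0.44, limma adjusted p = 0.862), higher in the mutant in 4 of 6. Of the epithelial partners, Cldn4 had ratios of 3.34 in S3 and 4.10 in S4, Cldn7 4.35 and 4.06, and Cdh1 2.10 and 3.77. Krt8, a luminal keratin, had 1.60 and 3.94, and its partner Krt18 0.804 and 1.28. Ratios as large occurred in other pairs, with 4.84 in S0 and 3.98 in S1 for Krt8, 3.84 in S0 for Cdh1 and 5.02 in S0 for Krt18. The protease inhibitor Spint1 had 2.48 in S3 and 0.872 in S4. St14, of the same list of partners, had 2.41 and 1.98, at no more than 0.198 RPKM. The ratio was thus not the same for all epithelial genes, and the levels of Epcam, Prom1 and Cldn7 in these libraries were at most 1.28 RPKM.

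**Figure D4:**
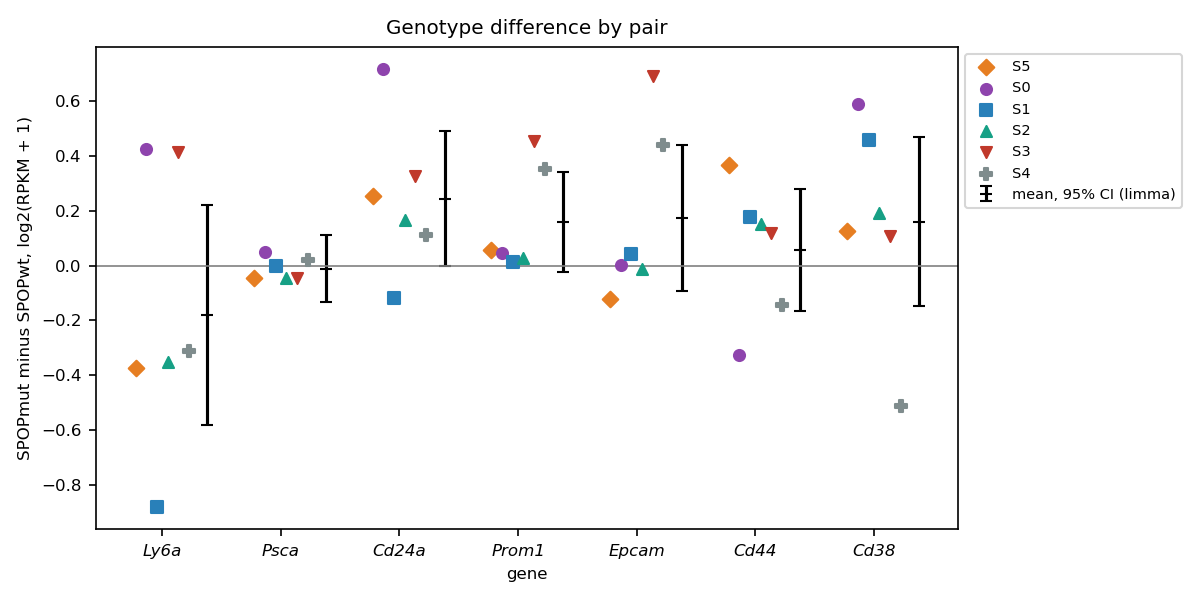
Difference of SPOPmut minus SPOPwt on the log2(RPKM + 1) scale (vertical axis) for the 7 members that could be fitted (horizontal axis), with 1 symbol per pair and, at the right of each gene, the limma mean with its 95% confidence interval. All 7 intervals include 0, and for Prom1 and Epcam the pairs S3 and S4 are the highest.

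Ly6a showed no common direction. The mutants stood at 487 RPKM in S5 and at 200.4, 72.1, 97.5, 84.2 and 70.1 RPKM in S0 to S4, the controls at 632 RPKM in S5 and at 149, 134, 125, 62.9 and 87.4 RPKM in S0 to S4. The mutant was lower in 4 of 6 pairs and higher in S0 and S3, with a mean of -0.18 (SE 0.17, 95% confidence interval -0.58 to 0.22, limma adjusted p = 0.887). That mean was -0.04 without S1, -0.301 without S0 and -0.299 without S3. Cd38 in the mutant exceeded the control in 5 of 6 pairs, with a mean difference of 0.16 (SE 0.13, 95% confidence interval -0.15 to 0.47, limma adjusted p = 0.887), and in S4 the difference was -0.51. Its mean was 0.0742 without S0, 0.1 without S1 and 0.295 without S4. For Cd44 the mutant was above its control in 4 of 6 pairs, and the mean was 0.058 (SE 0.097, 95% confidence interval -0.17 to 0.28, limma adjusted p = 0.923), or -0.0043 without S5. For Psca the S5 pair, 38.7 RPKM in the mutant and 39.9 RPKM in the control, was the only one above single reads. A p that misses the threshold does not show that the genotypes are alike. The intervals hold on the log2(RPKM + 1) scale, which shrinks differences of low genes: with a pseudocount of 0.1 the mean was 0.472 for Prom1, 0.434 for Epcam and 0.319 for Cd38, and none was called.

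Lists of relatives and partners of the members showed how far each list shared the S5 pattern. Of 27 Ly6 and uPAR family genes 11 passed the lower filter, of which 4 did so through S5 alone and so had to stand above there. Of the other 7, 3 stood above all S0 to S4 libraries in S5 and 1 below, beside the shares of 21.1% and 28.4% over all genes. These are small counts and were not tested. Ly6d, a family member of stratified epithelia, stood at 636 RPKM in the S5 mutant and 317 RPKM in the S5 control, against at most 0.107 RPKM in S0 to S4. Ly6e stood at 249 and 323 RPKM in the S5 mutant and control and at 111 to 165 RPKM in S0 to S4. Ly6c1, which shares sequence with Ly6a, overlapped, at 60.9 and 89.5 RPKM in S5 and 20.5 to 91.7 RPKM in S0 to S4. The gene below was Ly6f, at 0.115 and 0.0692 RPKM in S5 and 3.41 to 10.0 RPKM in S0 to S4, named after its values were seen.

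Among 10 partners of prominin and EPCAM, 9 passed the filter, 5 of them through S5 alone, and of the other 4, 2 stood above in S5 and 0 below. Over all genes the shares were 21.1% above and 28.4% below. Cldn4, a tight junction claudin, stood at 891 RPKM in the S5 mutant and 672 RPKM in the S5 control, with a maximum of 3.64 RPKM in S0 to S4. The tetraspanin Cd9 overlapped (130 and 120 RPKM in S5, 81.6 to 154 RPKM in S0 to S4), so it did not separate the pairs. Spint2, a protease inhibitor, was above, at 112 and 128 RPKM in S5 and 1.62 to 8.88 RPKM in S0 to S4. Of 24 other surface proteins used to sort prostate epithelium, 19 passed the filter, 3 of them through S5 alone. Of the other 16, 6 stood above (37.5%, beside 21.1% of all genes) and 2 below (12.5%, beside 28.4%), which was not tested. Itgb1, the integrin beta 1 chain, was below at 141 and 139 RPKM in S5 and 156 to 262 RPKM in S0 to S4, whereas Cdh1 was above at 128 and 127 RPKM in S5 and at most 1.34 RPKM in S0 to S4.

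Of 16 hyaluronan and CD44 partners 15 passed, 2 of them through S5 alone, and of the other 13, 5 stood above (38.5%, beside 21.1% of all genes) and 4 below (30.8%, beside 28.4%). Ezrin (Ezr), which ties CD44 to actin, stood at 117 and 125 RPKM in S5 and 14.0 to 39.0 RPKM in S0 to S4, while its relative moesin (Msn) overlapped (107 and 120 RPKM in S5, 76.3 to 142 RPKM in S0 to S4). Spp1, the CD44 ligand osteopontin, was below, at 11.1 and 15 RPKM in S5 and 76.3 to 1250 RPKM in S0 to S4, and the protease Mmp14 overlapped. Of 11 genes listed with Cd38, NAD and nucleotide enzymes and a transporter, 7 passed, 3 of them through S5 alone. Of the other 4, 0 stood above and 2 below (Nampt and the transporter Slc29a1). Of 11 peptidases and related genes listed with Dpp4, not all of its family, 8 passed, 0 through S5 alone. Of these, 1 stood above (Dpp8) and 4 below (Dpp7, Anpep, Mme and Enpep). The 4 below are peptidases outside the DPP4 family proper. Of 15 neurotrophin genes in the files 8 passed, 1 through S5 alone, and of the other 7, 0 stood above and 4 below. The shares over all genes were 21.1% above and 28.4% below, and these small counts were not tested. Nt5e, the enzyme CD73, stood at 13.2 and 14.4 RPKM in S5 and at most 0.453 RPKM in S0 to S4. The nucleoside transporter Slc29a1 stood at 4.44 and 4.98 RPKM in S5 and 25.4 to 41.4 RPKM in S0 to S4, and Nampt, which makes NAD precursors, at 14.6 and 13.6 RPKM in S5 and 15.3 to 23.3 RPKM in S0 to S4. The peptidase Mme stood at no more than 0.0154 RPKM in S5 and at 14.8 to 49.6 RPKM in S0 to S4, while Dpp3 and Prep overlapped. Maged1 and Ngfrap1, which bind the neurotrophin receptor, stood at 28.9 and 32.6 RPKM and at 80.1 and 78.6 RPKM in S5, against 52.2 to 109 RPKM and 84.1 to 155 RPKM in S0 to S4. Over all genes of the lower filter the median log2 difference of S5 minus S0 to S4 was -0.039.

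None of the relatives was called between genotypes in limma, with 0 of 3 to 0 of 12 tested genes per list at an adjusted p under 0.05. At an unadjusted p under 0.05 there was 1 gene each among the other surface proteins, the CD44 partners and the genes listed with Dpp4, and 0 in the other 4 lists. The median genotype difference of the lists ran from -0.099 (Ly6 family, 5 genes tested) to 0.241 (prominin and EPCAM partners, 3 genes tested), beside 0.00055 over all 13600 genes. With so few genes these medians are the values of single genes, Ly6c1 and Cd9. Among the relatives tested, Cd9 and Lgr4 exceeded the control in 6 of 6 pairs, with mean differences of 0.24 and 0.062, at a limma adjusted p of 0.887 each. St14, Ntf5 and Art3 did so too, but they did not pass the limma filter and were below 1 RPKM in all S0 to S4 libraries. Over all 13600 genes tested, which do not include St14, Ntf5 and Art3, 3.62% did so, and so few relatives are not read as a result.

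Across the 10 libraries of S0 to S4, the genes most like each member were found by Pearson correlation of log2(RPKM + 1) over 9765 genes. Libraries of 1 pair are not independent, and the highest of so many correlations is high by selection, so these are descriptions. Ly6a was most like the pseudogene Rps18-ps1 (r = 0.913, rho = 0.867) and Hagh (0.912, 0.855), and Cd24a was most like Odf2 (0.942, 0.867), Cpsf7 (0.939, 0.867) and Sf3b1 (0.927, 0.927). Cd44 was most like Ctnnbl1 (0.992, 0.988), Gm5940 (0.986, 0.964) and B3galnt2 (0.985, 1.00). For Cd38, whose S3 and S4 libraries form a set of their own, the nearest were Tmem173 (0.993, 0.964), which encodes the DNA-sensing adaptor STING, Capn6 (0.989, 0.927) and Lhfpl2 (0.985, 0.927).

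In GRCm38 Ly6a lies on chromosome 15 at 74994877 to 74998031 (minus strand) and Psca 277.8 kb away on the same chromosome at 74714839 to 74717069 (plus strand). Cd24a lies on chromosome 10 at 43578284 to 43584265, Epcam on chromosome 17 at 87635979 to 87651129 and Ngfr on chromosome 11 at 95568818 to 95587735. Prom1 (43993620 to 44102032) and Cd38 (43868553 to 43912375) lie on chromosome 5, and Dpp4 (62330073 to 62412231) and Cd44 (102811141 to 102901665) on chromosome 2. All 9 are protein-coding, and exons of Prom1 and Dpp4 overlap antisense genes.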

How the data were processed

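RNA-seq of 12 mouse prostate organoid libraries was analysed. The authors deposited RPKM values per gene name, 1 file per library; per the submitters' processing notes, the aligner was STAR 2.4.0j and the genome mm10 (GRCm38). The sources used here name no counting program or annotation and do not say how multiply mapped reads were treated. Low values fell on half-read steps too seldom (40.9 to 44.0%, against 16% by chance) to recover whole reads, so read numbers are approximate and no count test or counting interval is given.

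Values were analysed as log2(RPKM + 1), which understates changes of low genes, with limma 3.58.1 in R 4.3.3 (pair and genotype, trended robust prior, Benjamini-Hochberg over all genes) on genes reaching 1 RPKM in at least 6 libraries. The code was tested on simulated data. Sign-flip tests were exact. Python 3.11.15 was used for the rest. The protocols speak of pairs; same-numbered libraries deviated together in S1 to S5 (correlations 0.753 to 0.954) and hardly in S0 (0.0602). S1 and S3, and S2 and S4, share index sequences within a group. A shared index is not itself a batch, and the labels give no other. Whether S3 and S4 were sequenced apart from S1 and S2 is not stated. No libraries were merged as duplicates. S1 and S2 were the most alike in both genotypes, by the median chi-square per gene between 2 libraries on approximate reads. It was 1.19 in SPOPwt and 2.08 in SPOPmut, beside 0.455 from sampling alone and at least 7.92 for any other 2 libraries of a genotype. S1 and S2 still count as 2 pairs in limma, the pair counts and the sign-flip tests, though they may not be independent.

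Members and gene lists were chosen with earlier results of these data known. Of each list of relatives the 2 genes highest in S5 and the 2 highest in S0 to S4 are named, and for likeness the 3 of highest r, except that 2 genes this rule names are not reported here. Bst1, Ly6f, Lgr4, Hoxb13, Pbsn, Krt5, Krt14, Krt15, Krt19, Trp63, Lamb3, Tmprss2, Cldn3, Krt8, Krt18, Spint1, Msln, Wt1, Cd68, Csf1r, Ptprc and Cldn7 were named after their values were seen. So were Upk1b, Upk3b, Lrrn4, St14, Ntf5, Art3, Dpp7, Dpp8, Anpep and Enpep. Coordinates are from GENCODE M21 on GRCm38. The alternatives tried were other filters, pseudocounts, scalings, no block, pair weights, another prior and leaving out pairs.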

Additional observations from a re-analysis of the deposited data

Results flagged for a closer look

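In 10 cases the S5 library lay far from the other 5 of its genotype, by the gap to its neighbour relative to the whole range on the log2(RPKM + 1) scale. These were Psca at 38.7 RPKM in the S5 mutant and 39.9 RPKM in the S5 control, Epcam at 88.6 RPKM in the mutant and 96.3 RPKM in the control, and Prom1 at 6.35 RPKM in the mutant and 6.07 RPKM in the control. Ngfr did so at 0.528 RPKM in the mutant and 0.473 RPKM in the control, Cd44 at 93.1 RPKM in SPOPmut only, and Ly6a at 632 RPKM in SPOPwt only. For normally spread values chance would mark about 1 in 20 groups, but genes at or near 0 in most libraries do not have that spread. S5 was already known to stand apart, so the number of cases says nothing about chance. For Cd24a in both genotypes, Cd44 in SPOPwt and Ly6a in SPOPmut the S5 library was also the highest, but its gap did not reach the limit used (Dixon's 95% critical value). All 10 are the same pair, so they are not separate observations.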

How the results depend on the processing

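With pair weights limma called 9 genes between genotypes, 7 higher and 2 lower in SPOPmut and none of them a member, and 0 under every other setting and with any 1 pair left out. Without the replicate block 0 genes were called, with 29 at an unadjusted p under 0.05 against 761 with it. Of 109 alternative values of the 7 fitted members 108 kept their direction and 0 were called. The exception was Cd44, whose difference ran from -0.00431 (without S5) to 0.135 (without S0) when a pair was left out. Leaving out 1 pair gave -0.301 to -0.04 for Ly6a and 0.0742 to 0.295 for Cd38. Without S3 the difference of Epcam was 0.0706 and that of Prom1 0.0989. With a pseudocount of 0.1 the S5 minus S0 to S4 difference became 8.59 for Epcam, 8.44 for Psca, 4.78 for Prom1, -4.64 for Cd38 and 2.47 for Ngfr. Of the 9 members 8 were separated in S5, and 7 under quantile normalization, whose table does not hold Ngfr. Depth limits Psca in S0 to S4, Dpp4 in all pairs, and Epcam and Prom1 in S0 to S2, where values rest on single reads or a few reads.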
